A study of Mus musculus with 14 samples.

Results

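Transcripts of 5 subunits of the phagocyte NADPH oxidase (Cybb, Cyba, Ncf1, Ncf4 and Rac2) and of the mitochondrial superoxide dismutase Sod2 were measured by RNA sequencing in 3 mouse bone marrow populations given PBS or IL-1β. The genes were chosen by name, as the source and a disposal enzyme of superoxide, with earlier results on these data known. These were 6 of 55487 genes in the count tables. LSK cells (lineage-negative, positive for Sca1 and c-kit) and LK cells (lineage-negative, positive for c-kit) are stem and progenitor fractions. They were sorted from recipients of marrow of mice carrying Mx1Cre and a heterozygous Jak2V617F knock-in allele. That marrow, after induction of the Cre by pI-pC, had been transplanted into lethally irradiated C57BL/6 mice. From 4 weeks after transplantation the recipients were injected intraperitoneally with PBS, or with 0.5 μg of IL-1β, 3 times per week for 16 weeks. The study states that mice of 6-8 weeks of age were used. Both treatment groups therefore carried the Jak2 mutation in blood-forming cells under an interferon-inducible Cre, and cells of the irradiated host may have been present. Progenitors without the mutation were not analysed here. The mesenchymal stromal cells (MSC) came from wild-type C57BL/6 marrow, were cultured for 21 days, and received PBS or IL-1β at 5 ng/ml for 72 h. They had neither the Jak2 allele nor a transplant, so MSC and sorted cells differed in genotype, culture and exposure at once. The comparisons asked how IL-1β altered these transcripts in each population and how LSK and LK cells differed under each treatment.

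The phagocyte NADPH oxidase passes electrons from NADPH across a membrane to oxygen and so makes superoxide. Its catalytic subunit gp91phox (Cybb) and the partner p22phox (Cyba) sit in the membrane, while p47phox (Ncf1), p40phox (Ncf4) and the GTPase Rac2 join them from the cytosol when a cell is activated. Neutrophils and macrophages are known for this burst, and SOD2 turns superoxide into hydrogen peroxide inside mitochondria.

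In each of LSK and LK there were 3 PBS libraries and 2 IL-1β libraries, and in MSC there were 2 of each. Each recipient got either PBS or IL-1β, so libraries of the 2 treatments with the same number shared no mouse. Whether an LSK or LK library came from 1 mouse or several is not given in the sources used here. For cell experiments in general, the study's reporting summary describes wells of a single plating that were assigned to treatments at random. The p-values therefore measure the spread between these libraries, which for MSC may be technical. Counted read pairs were 12172400, 13241793 and 16271408 in the LSK PBS libraries 1 to 3, against 8641124 and 4393233 in the IL-1β libraries 1 and 2. The LK PBS libraries held 12804883, 18544346 and 13992210, against 7652483 and 6367352 under IL-1β. In LSK and in LK cells each IL-1β library was thus shallower than each PBS library, so depth and treatment cannot be told apart. For MSC the totals were 5834909 and 13155033 in the PBS libraries 2 and 3, and 30871055 and 11681794 in the IL-1β libraries 1 and 2. The LSK PBS library 2 stood apart from the other PBS libraries of its population, with 3354 and 3559 genes over 2-fold away from libraries 1 and 3, which differed from each other by that much at 995 genes.

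Values are CPM, read pairs relative to library size after TMM normalization within a population, unless TPM is named, which also divides by gene length and sums to the same total in each library. A gene was called when edgeR's quasi-likelihood test gave a Benjamini-Hochberg adjusted p under 0.05 with a log2 fold change above 0.5 in size. All 6 members passed the filter on low counts in each of the fits. In bulk RNA, fewer cells of a type and less RNA per cell cannot be told apart, which holds for each difference below.

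Given IL-1β, LK cells had higher transcript levels of all 5 oxidase genes and no detected change of Sod2. In cultured MSC, Sod2, Ncf1, Cybb and Ncf4 rose. No member passed the test in LSK cells. Because the members were chosen with earlier results on these data known, the shares over all genes given here are a description only. Of the 6 members, 5 were called higher in LK cells, where 6.77% of 12835 genes were called higher. Both IL-1β libraries lay above all 3 PBS libraries for 5 of 6 members against 23.5% of genes. Called higher in MSC were 4 of 6 members, with 7.14% of 13239 genes called higher. With all IL-1β libraries above all PBS libraries there were 5 of 6 in MSC, against 31.3% of genes. For LSK cells edgeR called 0 of 6 members, in a comparison where 0.632% of 13132 genes were called in either direction. In that comparison 2 of 6 members had an unadjusted p under 0.05, as had 2431 of 13132 genes, and DESeq2 and limma-voom also called 0 of 6. The libraries did not overlap, with IL-1β above PBS, for 3 of 6 members (Cybb, Cyba and Sod2), against 18.2% of genes in LSK. The median log2 fold change of the members was 0.42 in LSK, 1.53 in LK and 0.71 in MSC, where the median over all genes tested was -0.06, -0.03 and 0.00.

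In LSK cells compared with LK cells under PBS, Ncf1 and Ncf4 were called higher and Sod2 lower. The calls of Ncf1 and Ncf4 were lost with only the PBS libraries in the fit. In the main fit 2 of 6 members were called higher, where 19.4% of 13839 genes were, and 1 of 6 was called lower, where 12.4% were. For 6 genes these counts are not far from the shares over all genes. In that comparison 11 of 11 erythroid markers and 5 of 13 neutrophil markers were called lower in LSK cells. Called higher were 4 of 6 megakaryocyte markers and 2 of 13 monocyte and macrophage markers (Lyz2 and Ptprc). Under IL-1β, 1 of 6 members (Cybb) was called lower in LSK cells, with 2.27% of genes called lower. There, 7 of 11 erythroid and 2 of 13 neutrophil markers (S100a8 and S100a9) were called lower, and 5 of 6 megakaryocyte markers higher. Of monocyte and macrophage markers, 0 of 13 were called. The part of these markers in the differences of the members was not tested under either treatment. A test of the difference between the LSK and LK responses to IL-1β called 0 of 6 members with edgeR, where 0.0289% of genes were called. Of the members, 5 of 6 had an unadjusted p under 0.05 in that test, as had 1967 of 13839 genes. DESeq2 called 2 members (Ncf1 and Ncf4) and 324 of 11448 genes, and limma-voom called 0 members and 1 gene. The treatment comparisons and the comparisons of LSK with LK share libraries, so they are not independent of each other.

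**Figure D1:**
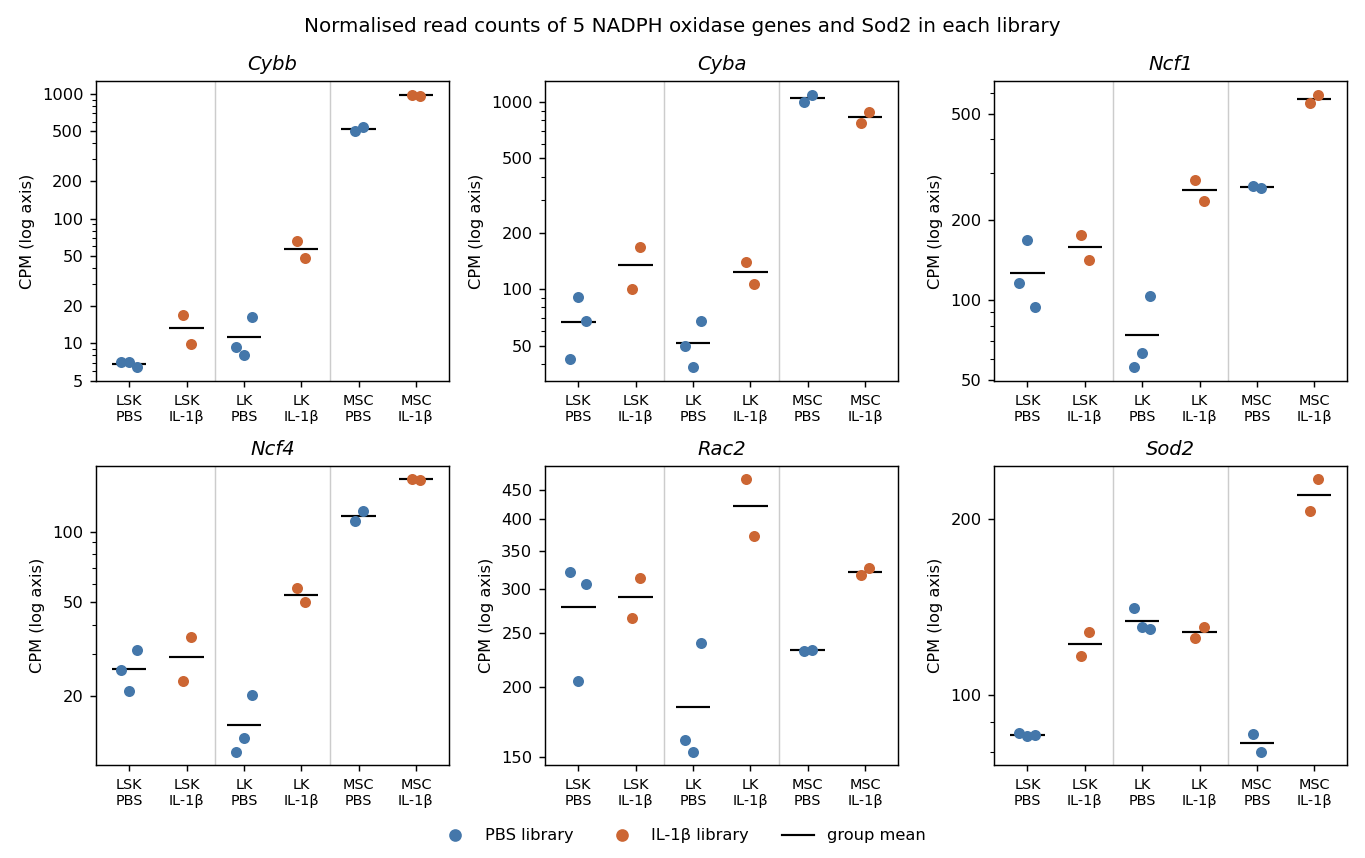
Each point is 1 library and each line a group mean, in CPM on log axes, scaled within a population, so that only points between the same grey lines share a scale. For Cybb the LK IL-1β libraries lie at 66.4 and 47.9 CPM, above LK PBS libraries at 9.37, 8.11 and 16.2, whereas the 5 LK libraries of Sod2 lie between 125 and 141.

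Cybb encodes gp91phox, the heme-bearing chain that carries out the electron transfer. The gene lies on chromosome X of GRCm38, minus strand, from 9435252 to 9487771. With PBS the LK libraries held 9.37, 8.11 and 16.2 CPM of Cybb, and with IL-1β 66.4 and 47.9. The lower IL-1β library was thus well above the highest PBS library, and the groups did not overlap. Group means were 11.2 ± 4.37 (SD, n = 3) and 57.2 ± 13.1 (SD, n = 2), and Cybb rose by 2.35 on the log2 scale (SE 0.31, edgeR adjusted p = 0.00633). This was the largest log2 fold change of any member in the LK comparison. Without the LK IL-1β library 1 the log2 fold change was 2.08 and the call was lost (edgeR adjusted p = 0.0915, where the alternatives ranged from 6.12e-34 to 0.0915). In LSK cells Cybb was at 7.08, 7.04 and 6.43 CPM with PBS and at 16.8 and 9.91 with IL-1β. Both IL-1β libraries were above the tightly grouped PBS libraries, but they differed from each other by more than the nearer one differed from PBS. The log2 fold change was 0.97 (SE 0.44) with a 95% interval from -0.01 to 1.95, and did not pass (edgeR adjusted p = 0.274).

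Stromal cultures held far more Cybb. Their libraries also held more summed TPM of macrophage markers than of mesenchymal markers, as given below. The MSC libraries were at 502 and 547 CPM with PBS and at 986 and 965 with IL-1β, without overlap. Cybb rose with a log2 fold change of 0.90 (SE 0.11, edgeR adjusted p = 0.00948). Between sorted populations, on CPM scaled over the 10 LSK and LK libraries, PBS values were 7.34, 6.97 and 6.40 in LSK and 9.41, 8.14 and 16.3 in LK cells. All LSK libraries were lower, yet the log2 fold change of -0.71 (SE 0.30) was not called (edgeR adjusted p = 0.0942, range 0.0339 to 0.400), except with no filter on low counts (0.0339). On the same scale the IL-1β libraries were at 16.3 and 9.80 in LSK and at 66.6 and 48.1 in LK cells. Cybb was therefore lower in LSK than in LK cells under IL-1β by a log2 fold change of -2.12 (SE 0.38, edgeR adjusted p = 0.0103). That call was lost without the LSK IL-1β library 2 (edgeR adjusted p = 0.0693) and without the LK IL-1β library 1 (0.0892, the highest of a range from 2.18e-06). Erythroid, neutrophil and megakaryocyte markers were also called between LSK and LK cells under IL-1β, as counted above. The difference between the 2 responses of Cybb was -1.41 on the log2 scale (SE 0.48, 95% interval -2.45 to -0.37) and was not called (edgeR adjusted p = 0.243).

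Cyba encodes p22phox, the small membrane partner that stabilizes gp91phox and docks the cytosolic subunits. It lies on the minus strand of chromosome 8 from 122424776 to 122432930. Its LK libraries were at 49.9, 38.3 and 67.3 CPM with PBS and 139.9 and 107 with IL-1β. They did not overlap, and Cyba rose with a log2 fold change of 1.26 (SE 0.24, edgeR adjusted p = 0.0226). In LSK cells the values were 42.3, 90.9 and 67.6 CPM with PBS, and 100.04 and 169 with IL-1β. The highest PBS library was close to the lower IL-1β library, without overlap. The log2 fold change of 1.00 (SE 0.35, 95% interval 0.21 to 1.79) was not called (edgeR adjusted p = 0.189, range 0.0266 to 0.721), but Cyba was called without the low-count filter (0.0266) and in a fit with a replicate block (0.0379), which joins PBS and IL-1β libraries of different mice by number only. Cyba went the other way in MSC, from 1002 and 1097 CPM with PBS to 773 and 885 with IL-1β. Both MSC IL-1β libraries were below both PBS libraries, by a log2 fold change of -0.34 (SE 0.12), which was not called (edgeR adjusted p = 0.136). The LK call of Cyba was among the least stable. It was lost in the joint fit of LSK and LK libraries (edgeR adjusted p = 0.0564) and without the LK PBS library 1 (0.0747), the IL-1β library 1 (0.206) or the IL-1β library 2 (0.0631), in a range from 3.25e-18 to 0.206. Between LSK and LK cells Cyba was not called under either treatment (log2 fold change 0.37 under PBS, edgeR adjusted p = 0.370, and 0.09 under IL-1β, edgeR adjusted p = 0.918).

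Ncf1 encodes p47phox, the organizer that is phosphorylated on activation and brings the cytosolic complex to p22phox. The gene spans 134220053 to 134229625 on the minus strand of chromosome 5, where exons of Gtf2ird2 overlap it on the other strand, and counting used the strand. LK libraries held 55.8, 63.4 and 103 CPM of Ncf1 with PBS and 282 and 236 with IL-1β. The highest PBS library was below the lower IL-1β library, and Ncf1 rose with a log2 fold change of 1.81 (SE 0.26, edgeR adjusted p = 0.0123). That call needed both IL-1β libraries, since without library 1 the edgeR adjusted p was 0.125 and without library 2 it was 0.0542 (range 9.78e-12 to 0.125). The LSK libraries were at 115, 167 and 94.3 CPM with PBS and at 176 and 141 with IL-1β. These overlapped, with the PBS library 2 between the IL-1β libraries, and the log2 fold change was 0.33 (SE 0.29, edgeR adjusted p = 0.560). In MSC, Ncf1 was at 267 and 264 CPM with PBS and 547 and 589 with IL-1β. The PBS libraries were nearly equal and well apart from IL-1β, with a log2 fold change of 1.10 (SE 0.11, edgeR adjusted p = 0.00476).

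Ncf4 encodes p40phox, which binds a phosphoinositide of the phagosome membrane and stabilizes the complex there. It lies on the plus strand of chromosome 15 from 78244801 to 78262580. With PBS, LK libraries were at 11.5, 13.2 and 20.2 CPM, and with IL-1β at 57.6 and 49.998. Both IL-1β libraries were far above the highest PBS library, and the log2 fold change of 1.85 (SE 0.23) had the smallest adjusted p of the members in LK cells (edgeR adjusted p = 0.00475). It was not called without the IL-1β library 1 (edgeR adjusted p = 0.0898, in a range from 1.47e-22 to 0.0898). In LSK cells Ncf4 was at 25.8, 21.0 and 31.3 CPM with PBS and at 23.0 and 35.7 with IL-1β. The treatments overlapped, and the log2 fold change was 0.16 (SE 0.33, edgeR adjusted p = 0.820). For MSC the values were 111 and 122 CPM with PBS and 167 in both IL-1β libraries. Ncf4 rose there by a log2 fold change of 0.52 (SE 0.10, edgeR adjusted p = 0.0332), just over the fold threshold. With upper-quartile factors the log2 fold change was 0.45, and without the MSC PBS library 2 it was 0.46, so Ncf4 was not called.

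Ncf1 and Ncf4 were also called between the sorted populations under PBS. On CPM scaled over the 10 libraries, Ncf1 was at 119.6, 166 and 93.9 in LSK and at 56.1, 63.6 and 103 in LK cells, where the LK library 3 was above the LSK library 3. The log2 fold change of Ncf1 was 0.77 (SE 0.25, edgeR adjusted p = 0.0372). Ncf4 was at 26.7, 20.7 and 31.1 in LSK and 11.6, 13.2 and 20.2 in LK cells, without overlap (log2 fold change 0.80, SE 0.27, edgeR adjusted p = 0.0362). Both calls were close to the threshold. With only the PBS libraries in the fit they were lost (edgeR adjusted p = 0.0801 for Ncf1, in a range from 0.00758 to 0.153, and 0.0647 for Ncf4, in a range from 0.0144 to 0.148). Ncf1 was also lost with DESeq2's size factors (edgeR adjusted p = 0.0522). Left out singly, 7 of 10 libraries ended the call of Ncf1 and 6 of 10 that of Ncf4. Under IL-1β the direction was opposite, with LSK libraries below LK libraries for Ncf1 (log2 fold change -0.74, edgeR adjusted p = 0.193) and for Ncf4 (-0.92, edgeR adjusted p = 0.137), and neither was called. With no filter on low counts Ncf1 was called there (edgeR adjusted p = 0.0476, range 0.0476 to 0.511). The difference between the LSK and LK responses was -1.51 on the log2 scale for Ncf1 (SE 0.40, edgeR adjusted p = 0.176) and -1.72 for Ncf4 (SE 0.42, edgeR adjusted p = 0.152). By DESeq2 the adjusted p was 0.0370 for Ncf1 and 0.0167 for Ncf4, and with no filter on low counts edgeR called both (edgeR adjusted p = 0.00282 and 0.0114). Ncf4 was also called without the LSK PBS library 2 (edgeR adjusted p = 0.0446).

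Rac2 encodes the Rac GTPase of blood cells, whose GTP-bound form activates the oxidase. It lies on the minus strand of chromosome 15 from 78559167 to 78572783. In LK cells Rac2 was at 161, 153 and 240.1 CPM with PBS and 471 and 373 with IL-1β. The PBS library 3 was the highest of its group, as for Cybb, Cyba, Ncf1 and Ncf4, and was still below both IL-1β libraries. Rac2 rose by a log2 fold change of 1.19 (SE 0.21, edgeR adjusted p = 0.0179), the smallest of the 5. Leaving out 1 library ended this call in 4 of 5 cases, namely the IL-1β library 1 (edgeR adjusted p = 0.179), the IL-1β library 2 (0.0573), the PBS library 1 (0.0539) and the PBS library 2 (0.0617), in a range from 6.82e-21 to 0.179. LSK libraries were at 322, 206 and 306 CPM with PBS and 266 and 314 with IL-1β. The PBS library 2 was lowest and the others overlapped, with a log2 fold change of 0.06 (SE 0.27, 95% interval -0.54 to 0.66, edgeR adjusted p = 0.925). In MSC, Rac2 was at 232 and 234 CPM with PBS and 318 and 326 with IL-1β. These did not overlap, and the log2 fold change of 0.47 (SE 0.10, edgeR adjusted p = 0.0377) was under the fold threshold, so Rac2 was not called. With no filter on low counts it was 0.51 and was called.

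Between LSK and LK cells under PBS, Rac2 had a log2 fold change of 0.60 (SE 0.23) that was not called (edgeR adjusted p = 0.0613). In a fit with a replicate block it was called at 0.59 (edgeR adjusted p = 0.0358), and the alternatives ranged from 0.0130 to 0.274. It was also called without the LSK PBS library 2 (0.0130) and without the LK PBS library 3 (0.0215). Under IL-1β the log2 fold change was -0.57 (SE 0.28, edgeR adjusted p = 0.254). The response of LSK minus that of LK was -1.17 for Rac2 (SE 0.36, edgeR adjusted p = 0.208), and was called only without the LSK PBS library 2 (0.0491).

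Sod2 encodes the manganese superoxide dismutase of the mitochondrial matrix. Its position is the plus strand of chromosome 17 from 13006846 to 13040063. LK libraries held 141, 131 and 129.95 CPM of Sod2 with PBS and 125 and 131 with IL-1β. All 5 libraries lay in a narrow band in which the treatments overlapped, and the log2 fold change was -0.06 (SE 0.09, edgeR adjusted p = 0.730). Its 95% interval, from -0.28 to 0.15, did not reach the fold threshold in either direction. MSC libraries, in contrast, held 86.1 and 80.2 CPM with PBS and 206 and 233 with IL-1β. Sod2 rose there by a log2 fold change of 1.40 (SE 0.12, edgeR adjusted p = 0.00301), the largest of the members in MSC. In LSK cells Sod2 was at 86.3, 85.4 and 85.7 CPM with PBS and 117 and 128 with IL-1β. The PBS libraries were almost identical and both IL-1β libraries were above them, but the log2 fold change of 0.51 (SE 0.22, 95% interval 0.01 to 1.01) was not called (edgeR adjusted p = 0.263, range 0.0674 to 0.701).

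Under PBS the LSK libraries held less Sod2 than the LK libraries, with 89.4, 84.5 and 85.3 against 141.6, 131 and 130.5 CPM scaled over the 10 libraries. The groups were clearly apart, with a log2 fold change of -0.64 (SE 0.13, edgeR adjusted p = 0.00386). This was the only call of a member in that comparison that held in all 18 alternatives, with an edgeR, DESeq2 or limma-voom adjusted p of at most 0.0255. Erythroid, neutrophil and megakaryocyte markers were also called between LSK and LK cells under PBS, as counted above. Under IL-1β the LSK libraries were at 113 and 127 and the LK libraries at 126 and 131, which overlapped (log2 fold change -0.10, SE 0.17, edgeR adjusted p = 0.769). The difference between the responses was 0.54 on the log2 scale (SE 0.21, edgeR adjusted p = 0.3001) and was not called.

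The calls in MSC rested on both IL-1β libraries. With IL-1β library 1 left out, the edgeR adjusted p was 0.217 for Cybb, 0.115 for Ncf1, 0.385 for Ncf4 and 0.0719 for Sod2, and with library 2 left out it was 0.174, 0.115, 0.344 and 0.0605. Over all alternatives it ranged from 2.17e-10 to 0.217 for Cybb, from 3.73e-15 to 0.115 for Ncf1, from 0.000217 to 0.385 for Ncf4 and from 2.38e-23 to 0.0719 for Sod2. The log2 fold changes themselves moved little, with Sod2 at 1.30 to 1.49 and Cybb at 0.84 to 0.96 over the 4 fits that each left out 1 library. Upper-quartile factors changed the balance of calls over all genes in MSC, from 945 higher and 570 lower to 817 higher and 831 lower.

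**Figure D2:**
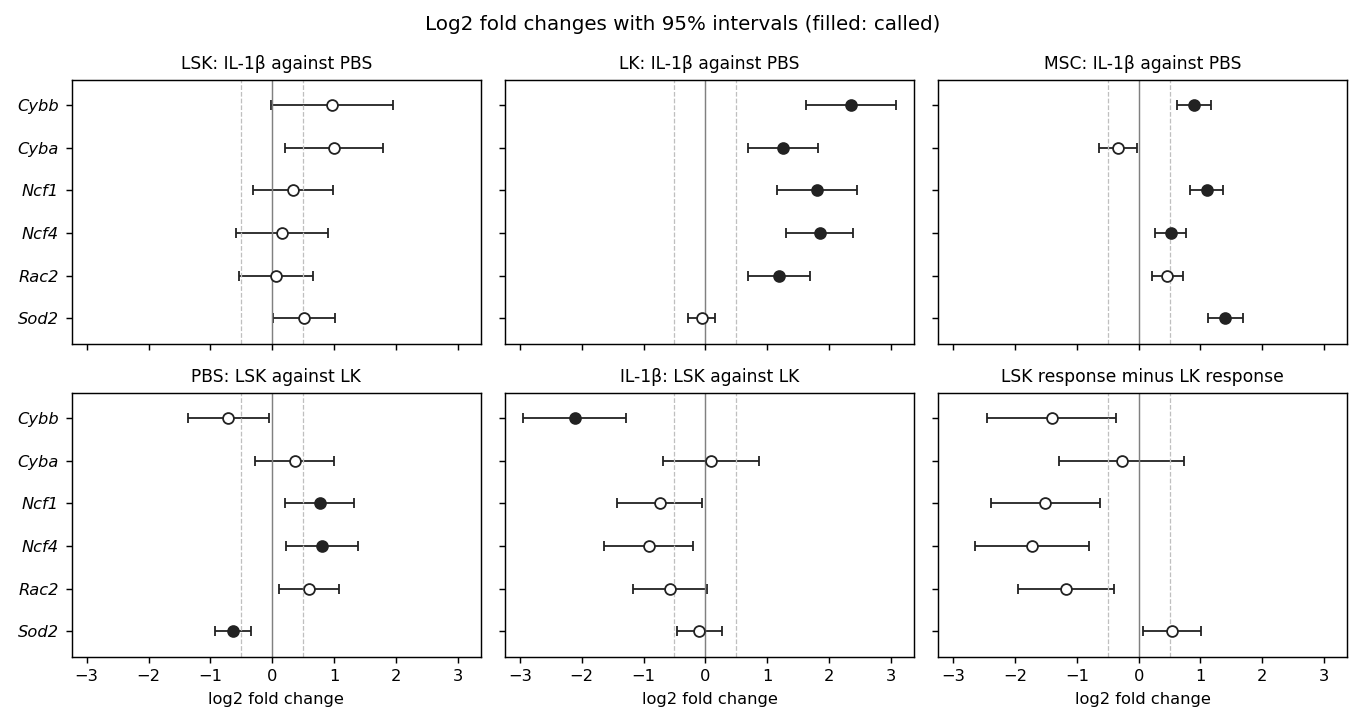
Points are log2 fold changes from edgeR with 95% intervals for the 6 members in 6 comparisons, filled where called, with dashed lines at the fold threshold of 0.5 in either direction. In LK cells 5 genes lie between 1.19 and 2.35 and Sod2 at -0.06, and in MSC Cyba is the only member below 0, at -0.34.

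Levels of different genes were compared in TPM. Total RNA had been depleted of ribosomal RNA, and TPM was sensitive to a transcript of 57 bases, Gm23935, which was named after its values were seen. It took 35.2% of all TPM in the LK PBS library 1, against 0.967% and 1.94% in the PBS libraries 2 and 3 and 2.23% and 2.56% with IL-1β. In LSK cells its share was 2.59%, 10.4% and 5.98% under PBS, against 11.2% and 11.3% under IL-1β, and in MSC it was at most 3.73%. TPM of every other gene is lowered in those libraries, so order across groups was also taken from CPM scaled over the 14 libraries. On the TPM scale the LSK libraries of Cybb and of Sod2 overlapped between treatments.

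Within a population the members were far from equal. Among LK IL-1β libraries the mean TPM was 426 for Rac2, 372 for Cyba, 221 for Ncf1, 83.3 for Ncf4, 40.1 for Sod2 and 30.8 for Cybb. Cybb was thus the scarcest of the 6 transcripts per length even in the progenitor group where it was highest. Under PBS it was at 4.09 ± 0.805 TPM (SD, n = 3) in LSK and 5.66 ± 2.94 (SD, n = 3) in LK cells, when Cyba was at 214 ± 44.9 and 143 ± 57.3. MSC differed in this order, with mean PBS levels of 2997 TPM for Cyba, 268 for Cybb, 223 for Rac2, 215 for Ncf1, 171 for Ncf4 and 24.7 for Sod2. Cybb was second of the 6 there, and 65.5 times its LSK PBS mean and 47.4 times its LK PBS mean in TPM. For Cyba those ratios were 14.01 and 20.9, for Ncf4 3.82 and 7.82 and for Ncf1 1.85 and 3.59. In CPM over the 14 libraries the ratios were higher, at 102 and 57.5 for Cybb, 21.0 and 24.9 for Cyba, 6.01 and 9.62 for Ncf4 and 2.81 and 4.41 for Ncf1. No test was made across MSC and sorted cells.

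Across the 6 groups, TPM of Cybb ran from MSC IL-1β (496 ± 18.0, SD, n = 2) through MSC PBS (268 ± 3.65, n = 2) and LK IL-1β (30.8 ± 7.11, n = 2) to LSK IL-1β (6.18 ± 2.82, n = 2), LK PBS and LSK PBS. The last 3 groups overlapped their neighbours and the first 3 were separate. Cyba was highest in MSC PBS (2997 ± 49.5, n = 2) and MSC IL-1β (2354 ± 174, n = 2), followed by LK IL-1β (372 ± 70.2) and LSK IL-1β (336 ± 90.2), which overlapped, and by LSK PBS and LK PBS, which also overlapped. For Ncf1 the order was MSC IL-1β (458 ± 14.3), LK IL-1β (221 ± 28.3), MSC PBS (215 ± 12.1), LSK PBS (117 ± 26.6), LSK IL-1β (115 ± 29.1) and LK PBS (60.0 ± 29.7). Its LK IL-1β and MSC PBS libraries overlapped, as did the LSK groups. Ncf4 had the order MSC IL-1β (244 ± 5.73), MSC PBS (171 ± 3.60), LK IL-1β (83.3 ± 8.44), LSK PBS (44.9 ± 12.5), LSK IL-1β (37.8 ± 7.92) and LK PBS (21.9 ± 10.3), of which the LSK groups overlapped. Scaled as CPM over the 14 libraries, LSK IL-1β came before LSK PBS for Ncf1 and Ncf4, and before LK IL-1β for Cyba, and each of these pairs overlapped. On that scale MSC PBS lay above LK IL-1β for Ncf1, and LK PBS above LSK PBS for Cybb, without overlap.

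For Rac2 and Sod2 the MSC were less distant from the sorted cells. Mean TPM of Rac2 ran from 426 ± 70.7 (SD, n = 2) in LK IL-1β through 317 ± 117 (n = 3) in LSK PBS, 306 ± 0.617 (n = 2) in MSC IL-1β, 246 ± 4.39 in LSK IL-1β and 223 ± 9.44 in MSC PBS to 174 ± 71.9 in LK PBS. LSK PBS overlapped with the groups on either side of it, and MSC PBS overlapped with LK PBS. In CPM over the 14 libraries MSC IL-1β (396 ± 6.93) came first for Rac2 and overlapped with LK IL-1β (390.3 ± 62.5). Sod2 was highest in MSC IL-1β at 64.7 ± 4.36 TPM and lowest in MSC PBS at 24.7 ± 2.40, with the sorted groups between them at 29.7 to 40.1 and each overlapping its neighbour. In CPM over the 14 libraries the order of Sod2 was different, with LK PBS (130.4 ± 6.84) second, LSK PBS (76.9 ± 1.35) last and no neighbours overlapping.

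Around the 6 members, the other genes of the pathway were taken from lists of textbook membership. Nox4, Noxa1, Cybc1, Rac1 and Sod1 were not called with IL-1β and are named here because of values already seen. Of 6 catalytic subunits, only Cybb had enough counts to be tested in LSK and LK cells. In MSC, Nox4 was also tested and not called (log2 fold change 0.90, edgeR adjusted p = 0.356). Noxa1 had 0 read pairs in every library.

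Of the membrane partner and maturation genes, 2 of 3 tested were called higher in LK cells, Cyba and the proton channel Hvcn1, which offsets the charge moved by the oxidase (log2 fold change 2.10, edgeR adjusted p = 0.0116). Cybc1, a chaperone of the gp91phox and p22phox pair, had nearly equal means of 71.7 ± 3.69 CPM under PBS and 71.6 ± 0.386 under IL-1β (SD, n = 3 and 2). In LSK against LK cells under PBS, Cybc1 was called higher (log2 fold change 0.54, edgeR adjusted p = 0.0415) and Hvcn1 lower (-1.58, edgeR adjusted p = 0.0178). No gene of this list was called in MSC or, with IL-1β, in LSK cells.

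All 13 listed Rac GTPases and regulators were tested in the 3 populations. In LK cells 5 were called higher and 0 lower, the largest being Arhgdib (log2 fold change 1.37, edgeR adjusted p = 0.0268), Rac2, Tiam1 (1.16, edgeR adjusted p = 0.0242) and Vav1 (0.73, edgeR adjusted p = 0.0381), and the list median was 0.57. Rac1, the widely expressed relative of Rac2, had LK means of 280.4 ± 38.4 CPM under PBS and 329 ± 16.9 under IL-1β (SD, n = 3 and 2) and was not called (log2 fold change 0.23, edgeR adjusted p = 0.2995). MSC had 1 of 13 called higher, Prex1 (log2 fold change 0.93, edgeR adjusted p = 0.00598), and the list median was 0.21. Of 9 tested kinases that act on the oxidase, LK cells had 2 called higher, Prkcb (log2 fold change 2.31, edgeR adjusted p = 0.00349) and Pak2 (0.55, edgeR adjusted p = 0.0224), with a list median of 0.55. In MSC 1 of 9 was called higher, Mapk14 (0.57, edgeR adjusted p = 0.04003), with a list median of 0.11. With IL-1β in LSK cells 0 genes of either list were called, at medians of 0.06 and -0.10.

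Under PBS some Rac regulators and kinases differed between LSK and LK cells, in a comparison where 19.4% of genes were called higher. Of the 13 in the Rac list, 5 were called higher, led by Dock2 (log2 fold change 1.49, edgeR adjusted p = 0.000742) and Vav3 (1.39, edgeR adjusted p = 0.00679), and 1 lower, Rac3 (-2.34, edgeR adjusted p = 0.0407). Of 9 kinases, 4 were called higher, led by Prkca (1.82, edgeR adjusted p = 0.00239) and Syk (1.55, edgeR adjusted p = 0.000223). The medians were 0.60 and 0.51, where that of all genes was 0.09. Under IL-1β 1 gene of the Rac list (Vav2, log2 fold change 0.90, edgeR adjusted p = 0.0465) and 0 kinases were called.

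Among superoxide dismutases, Sod1 is the cytosolic and Sod3 the secreted enzyme. Sod3 rose in MSC from 54.6 ± 0.0312 CPM (SD, n = 2) to 219 ± 7.34 (SD, n = 2), a log2 fold change of 2.004 (edgeR adjusted p = 0.00124). No sorted library held more than 1 read pair of it. Sod1 was not called with IL-1β in any population (log2 fold change 0.79 in LSK, edgeR adjusted p = 0.241, -0.41 in LK, edgeR adjusted p = 0.0548, and -0.58 in MSC, edgeR adjusted p = 0.0741). In MSC 2 of 4 genes of this list were called higher, with a median of 0.59, and in LK cells 0 of 3, with a median of -0.28.

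Genes that remove peroxide, the product of SOD2, did not move together. In LK cells 3 of 19 tested were called higher, namely Gpx3 (log2 fold change 2.78, edgeR adjusted p = 0.00791), Gsr (1.29, edgeR adjusted p = 0.00451) and Prdx5 (0.81, edgeR adjusted p = 0.0176). In the other direction 3 were called lower, Prdx4 (-1.03, edgeR adjusted p = 0.00518), Prdx2 (-0.78, edgeR adjusted p = 0.0192) and Txnrd2 (-0.61, edgeR adjusted p = 0.0337), and the list median was -0.04. MSC had 1 of 21 higher, Glrx (0.80, edgeR adjusted p = 0.0409), and 1 lower, Gpx4 (-0.75, edgeR adjusted p = 0.0321), with a median of 0.03. Under PBS, LSK cells had 8 of 19 lower than LK cells, with Gpx3 (-2.56, edgeR adjusted p = 0.0121) and the mitochondrial Prdx3 (-1.52, edgeR adjusted p = 0.000320) furthest, and 1 higher, Txnip (1.35, edgeR adjusted p = 0.000271). Sod2 was lower in LSK cells in the same comparison. Of its mitochondrial partners in NADPH supply and redox, 4 of 8 were lower there and 2 higher, Sirt3 (1.06, edgeR adjusted p = 0.00146) and Idh2 (0.63, edgeR adjusted p = 0.0162), with a median of -0.70. With IL-1β this partner list had 1 higher and 1 lower of 8 in LK cells, 0 higher and 1 lower in MSC and 0 called in LSK cells.

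Transcription factors known to act on phagocyte oxidase genes changed in LK cells in both directions. Of 8 tested, 5 were called higher, with Cebpe (log2 fold change 2.15, edgeR adjusted p = 0.00885), Cebpb (1.51, edgeR adjusted p = 0.00128), Spi1 (1.35, edgeR adjusted p = 0.0341) and Cebpa (1.33, edgeR adjusted p = 0.0270) the furthest. Irf8 was the 1 called lower (-2.59, edgeR adjusted p = 0.0122), going from 99.4 ± 18.7 CPM (SD, n = 3) to 16.7 ± 9.73 (SD, n = 2). Irf8 was also the only one of 9 called in LSK cells, again lower (-2.48, edgeR adjusted p = 0.0207). In MSC, Cebpb (1.03, edgeR adjusted p = 0.00503) and Irf1 (0.58, edgeR adjusted p = 0.0243) were called higher. LSK cells under PBS had higher Hoxa10 (4.48, edgeR adjusted p = 0.000516) and Irf1 (2.07, edgeR adjusted p = 5.37e-05) than LK cells and lower Cebpe (-2.73, edgeR adjusted p = 0.00468). Under IL-1β 0 of 9 of these factors were called between LSK and LK cells.

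Neutrophil markers were called higher with IL-1β in both LK and LSK cells. In LK cells 7 of 12 tested neutrophil markers were called higher with IL-1β (median log2 fold change 2.76), among them S100a9 (5.97, edgeR adjusted p = 0.0362), Lcn2 (5.65, edgeR adjusted p = 0.000541), S100a8 (5.61, edgeR adjusted p = 0.000262) and Ctsg (2.13, edgeR adjusted p = 0.0201). The summed level of the 14 neutrophil markers was 3918, 8612 and 13757 TPM in the LK PBS libraries 1 to 3 and 34192 and 28391 with IL-1β. Mpo was the most abundant in each, at 1861, 4013 and 6379 TPM under PBS and 11834 and 10306 under IL-1β. Ly6g, a surface marker of mature neutrophils, had 0 read pairs in all 5 libraries. The LK PBS library 3 was highest of its group for this sum and for the 5 oxidase genes. It was also highest for the sums of monocyte and macrophage, lymphoid, megakaryocyte and sort markers. For the erythroid and mesenchymal sums the PBS library 2 was highest. LSK libraries had sums of 4029, 2464 and 4601 TPM with PBS and 12145 and 13708 with IL-1β, with Mpo again the most abundant, Ly6g at 0. Of 12 tested there (median log2 fold change 3.25), 4 were called higher, Lcn2 (6.71, edgeR adjusted p = 0.000497), Elane (3.32, edgeR adjusted p = 0.0115), Prtn3 (2.34, edgeR adjusted p = 0.0288) and Mpo (1.91, edgeR adjusted p = 0.0210). Mpo, Elane, Prtn3 and Ctsg are also granule genes of progenitors, and Gr-1 is among the lineage antibodies in the study's flow cytometry methods. The part of these markers in the oxidase result was not tested.

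The monocyte and macrophage list did not follow the same course in LK cells, where 1 of 12 tested was called higher (Ptprc, log2 fold change 0.75, edgeR adjusted p = 0.0479) and 2 lower, Csf1r (-2.49, edgeR adjusted p = 0.0135) and Cx3cr1 (-1.13, edgeR adjusted p = 0.0314). Its sum was 179.8, 279 and 404 TPM in the LK PBS libraries and 290.4 and 209 with IL-1β, with Tyrobp the most abundant and Ms4a7 at 0 in the IL-1β library 2. Sums in the LSK libraries were 560.3, 414 and 572 TPM with PBS and 230.1 and 314 with IL-1β, with Lyz2 the most abundant, and 0 of 12 were called.

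MSC carried macrophage transcripts in abundance. All 16 monocyte and macrophage markers were above 3 read pairs in each MSC library, and their sum was 41879 and 31245 TPM with PBS and 74776 and 74603 with IL-1β. Lyz2 was the most abundant, at 16627 and 10467 TPM with PBS and 45194 and 45912 with IL-1β. With IL-1β 7 of 16 were called higher (median log2 fold change 0.49), the furthest being Lyz2 (1.77, edgeR adjusted p = 0.00865), Cd14 (1.40, edgeR adjusted p = 0.00604), Adgre1 (1.32, edgeR adjusted p = 0.00468) and Fcgr1 (1.29, edgeR adjusted p = 0.00266). The 14 mesenchymal markers summed to 3278 and 1600.5 TPM with PBS and 2732 and 2927 with IL-1β, led by Acta2 in the PBS library 2 and Sparc in the others. Lepr was at 0 in both PBS libraries and Lum at 0 in the PBS library 3. Of 13 tested, 1 was called higher, Dcn (1.60, edgeR adjusted p = 0.00513). The libraries labelled MSC thus held more TPM in the macrophage list than in the mesenchymal list. Neutrophil markers summed to 22.5 and 64.1 TPM with PBS and 152 in both IL-1β libraries, led by Mmp9 with PBS and Lcn2 with IL-1β, with Ngp, S100a9 and Ly6g at 0 in all 4, and 3 of 5 tested were called higher (Lcn2, Camp and Mmp8). Which cells of the cultures carried Cybb, Ncf1, Ncf4 or Sod2 was not tested, nor was the part of the macrophage markers in their change.

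**Figure D3:**
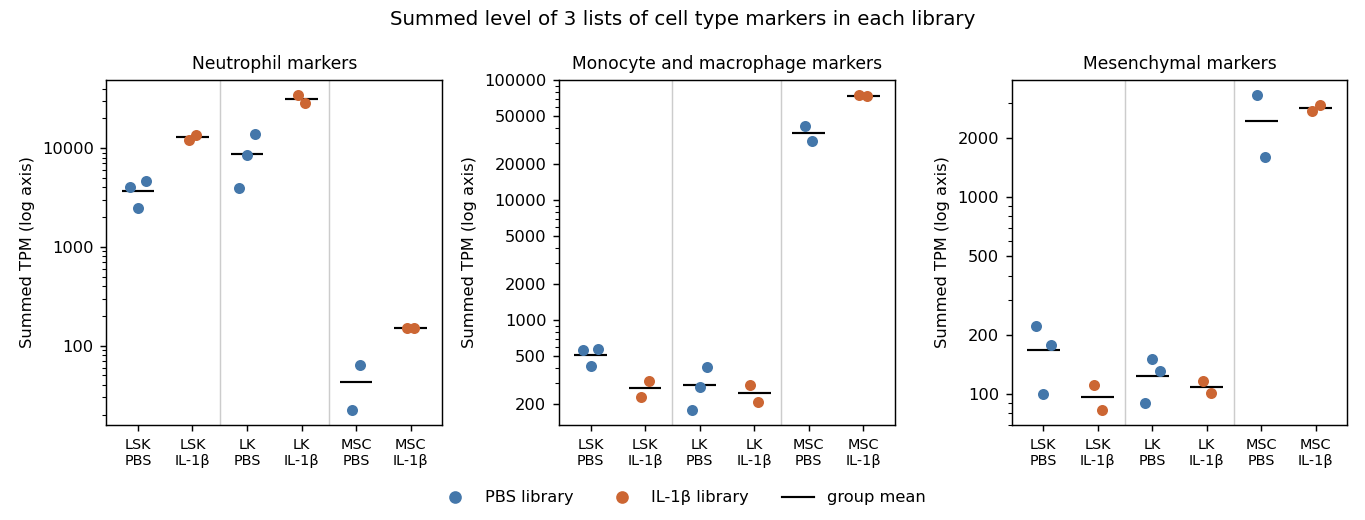
Each point is the summed TPM of 1 marker list in 1 library on a log axis, with a line at each group mean, for neutrophil (14 genes), monocyte and macrophage (16 genes) and mesenchymal (14 genes) markers. Neutrophil sums were 28391 and 34192 TPM in LK IL-1β libraries against at most 13757 in LK PBS, and macrophage sums were 74603 and 74776 in MSC IL-1β against at most 41879 in MSC PBS.

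The remaining marker lists described the sorted cells. Mesenchymal markers were low in them, with sums of 83.6 to 222 TPM led by Eng. In LK cells 1 of 6 tested (Thy1) was called higher with IL-1β and 1 (Eng) lower, and in LSK cells 0 of 5 were called. In LK cells 4 of 11 erythroid markers were called lower with IL-1β, the furthest being Klf1 (log2 fold change -1.13, edgeR adjusted p = 0.00554), and 0 of 9 tested were called in LSK cells. Erythroid sums were 4352, 5929 and 5752 TPM in LK PBS and 3453 and 3886 in LK IL-1β libraries, with Car1 the most abundant. Of 8 stem and progenitor sort markers, Flt3 was called lower in LK cells (-2.39, edgeR adjusted p = 0.00518), and Flt3 and Hlf were called lower in LSK cells (-2.42, edgeR adjusted p = 0.0207, and -2.08, edgeR adjusted p = 0.0225). All 8 were higher in LSK than in LK cells under PBS, led by Ly6a (5.89, edgeR adjusted p = 1.48e-05), the gene of the Sca1 antigen used in the sort. Lymphoid markers had 1 called higher and 1 lower of 3 tested in LK cells and 1 lower of 4 in LSK cells, while megakaryocyte markers had 1 lower of 5 and 1 lower of 6. In MSC, 1 of 1 tested lymphoid marker (Il7r) was called lower, 2 of 3 megakaryocyte markers (Ppbp and Pf4) were called higher, 0 of 1 erythroid markers was called and 1 of 4 sort markers (Kit) was called lower. Their part in the oxidase result was not tested.

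By Pearson's r of log2 CPM over the 14 libraries, among 15393 genes, those most like Cybb were Pla2r1 (0.987), Dhrs9 (0.986), Gas7 (0.985), Gpx3 (0.982) and Dab2 (0.982). Of the members, Ncf4 had an r of 0.953 with Cybb, Cyba 0.949, Ncf1 0.907, Sod2 0.629 and Rac2 0.611. These values include the gap in level between MSC and sorted cells. Genes most like Sod2 were Tm9sf1 (0.923), Nadk (0.917), Lrp10 (0.908), Tbc1d13 (0.903) and Rnf145 (0.903). Every other member was less like Sod2, from 0.629 for Cybb to 0.367 for Rac2. These values describe libraries that share populations and depth, and carry no test.

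Promoter sequences are shown for Cybb and Ncf1, which rose in both LK cells and MSC, and for Sod2, which rose in MSC without a detected change in LK cells. They come from RefSeq (GRCm38.p6), 250 bases before to 50 after the gene start, and 4 of 6 members (Cybb, Cyba, Ncf1 and Sod2) matched. For Cybb and Sod2 the RefSeq start lies inside the Ensembl gene used for counting. Both strands were searched for an interferon response core (GAAA, any 2 bases, GAAA), a GC box (GGGCGG), a purine-rich ETS core (GAGGAA) and a kappaB form (GGG, any 2 bases, TTTCC). Of 32851 promoters, 3.44% held the interferon core, 35.7% the GC box, 28.3% the ETS core and 1.63% the kappaB form. The interferon core was found 3 times in Cybb and 1 time in Ncf1. The GC box was found 4 times in Sod2, 2 times in Cyba and 1 time in Ncf1, and the ETS core 1 time in each of Cybb and Sod2. No match overlapped a match of another motif, and the letters of the kappaB form are not in these 4 windows. Bases G and C made up 35.3% of the Cybb window, 54.0% of Ncf1, 60.7% of Cyba and 64.3% of Sod2. In the first 2 sequences, at chrX:9469275-9469574 (minus strand, Cybb) and chr5:134229576-134229875 (minus strand, Ncf1), capitals mark the interferon core on either strand. In the last, at chr17:13007589-13007888 (plus strand, Sod2), they mark the GC box. A match of letters is a description and shows no binding.
Cybb: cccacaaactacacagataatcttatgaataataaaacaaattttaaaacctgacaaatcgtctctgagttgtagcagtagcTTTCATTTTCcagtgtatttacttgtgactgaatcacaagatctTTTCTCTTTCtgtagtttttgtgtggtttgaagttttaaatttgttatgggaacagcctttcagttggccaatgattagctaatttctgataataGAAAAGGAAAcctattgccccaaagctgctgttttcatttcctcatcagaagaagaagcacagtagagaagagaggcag
Ncf1: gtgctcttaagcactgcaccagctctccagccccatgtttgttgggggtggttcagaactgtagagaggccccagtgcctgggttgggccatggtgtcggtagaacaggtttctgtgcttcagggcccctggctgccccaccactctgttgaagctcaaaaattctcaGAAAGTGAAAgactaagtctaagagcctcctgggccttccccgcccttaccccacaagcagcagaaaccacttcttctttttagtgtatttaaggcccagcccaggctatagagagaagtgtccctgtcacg
Sod2: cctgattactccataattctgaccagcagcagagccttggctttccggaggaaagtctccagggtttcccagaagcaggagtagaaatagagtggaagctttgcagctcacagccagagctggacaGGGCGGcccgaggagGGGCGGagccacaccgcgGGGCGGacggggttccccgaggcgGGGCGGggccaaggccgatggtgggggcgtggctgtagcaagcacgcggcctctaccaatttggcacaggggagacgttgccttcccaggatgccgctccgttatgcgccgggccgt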

How the data were processed

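The authors trimmed paired reads with fastp 0.20.0 and aligned them to GRCm38 with HISAT2 2.0.1 and SAMtools 1.10. They deposited raw counts of read pairs per gene, made with featureCounts 2.0.2 (reverse stranded, Ensembl release 100), beside each gene's length in bases. The methods text names GenomicAlignments for counting, while the tables' headers name featureCounts, and it names NextSeq and the labels NovaSeq. Libraries were made from total RNA with rRNA depletion and NEBNext Ultra II. The labels give the injected IL-1β as 0.5 g, and 0.5 μg is stated in the text. 1 further MSC IL-1β library, named in a header, was not analysed here.

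Symbols were matched for 55141 of 55487 genes. The 14 libraries were fitted with edgeR 4.0.16 (R 4.3.3; filterByExpr, TMM, glmQLFit with robust estimation, glmQLFTest), separately for LSK, LK and MSC treatment, and jointly over 10 libraries for LSK against LK and for the difference between their responses. Common biological coefficients of variation were 0.377 (LSK), 0.183 (LK), 0.149 (MSC) and 0.299 (joint). Calls needed an absolute log2 fold change over 0.5 at a Benjamini-Hochberg adjusted p under 0.05. SE is the size of the log2 fold change over the square root of F, and 95% intervals use the t quantile of the test's own degrees of freedom. The code was tested on simulated data. Python 3.11.15 and matplotlib 3.10.9 made the figures.

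Replicate numbers were checked as pairs by correlating residuals. Same-numbered LSK and LK libraries had r of 0.21, 0.13 and 0.47 (PBS) and 0.10 (IL-1β), against at most 0.16 for other pairs. That 0.16 was for LSK library 2 with LK library 1 under PBS, above the 0.13 of the libraries numbered 2. With 2 IL-1β libraries in a population the residuals mirror each other, so only the sign of that r could differ. The check is therefore weak. Same-numbered LSK and LK libraries were taken as possible pairs, with a replicate block as an alternative fit. Same-numbered PBS and IL-1β libraries had r of 0.13 and -0.03 in LSK and -0.10 and 0.03 in LK cells, and were not taken as pairs. MSC treatments share only number 2.

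Alternatives were DESeq2 1.42.0, limma 3.58.1 (voom), and edgeR with upper-quartile scaling or with DESeq2's size factors. Others had low counts kept or filtered at 10 reads in 2 libraries, a replicate block, or a joint or separate fit. Each library was also left out. Lists covered oxidase catalytic subunits, maturation, Rac regulators, kinases, superoxide dismutases, peroxide removal, mitochondrial partners, transcription factors, and markers of neutrophils, macrophages, mesenchymal, erythroid, lymphoid and megakaryocyte cells and of the sort. The 6 genes, the lists and these alternatives were chosen with earlier results on these data known. Named were all 6, the called genes of each list (at most 4 per direction by size of log2 fold change), the most abundant marker of each list and the 5 genes most like Cybb and Sod2. Some genes of these lists are not reported here. Nnt was left out because 2 identifiers share its symbol.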

Additional observations from a re-analysis of the deposited data

Results flagged for a closer look

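Cyba moved in opposite directions in different populations. In MSC both IL-1β libraries were below both PBS libraries, with a log2 fold change of -0.34, whereas in LSK and in LK cells both IL-1β libraries were above all 3 PBS libraries (1.00 and 1.26). Only the LK change was called. The difference between MSC and the sorted cells was not tested.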

How the results depend on the processing

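Of the members' results in LK cells, 66 of 78 alternatives kept direction and side of the threshold, and the 12 that lost a call came from 1 library left out or, for Cyba, the joint fit. In MSC 49 of 60 kept both and 10 lost a call, and in LSK cells 73 of 78 did.

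Genes called in LSK cells numbered 83, but 870 with DESeq2, 21 with limma-voom, 869 with no filter on low counts, 702 with a replicate block and 1228 in the joint fit. With 1 library left out they ranged from 3 (without IL-1β library 2) to 480 (without PBS library 2). In LK cells 1199 became 1844 with no filter, 2331 with a replicate block, 489 in the joint fit, and 66 (without IL-1β library 1) to 2409 (without PBS library 3). The replicate block within LSK or LK joins libraries of different mice by number only and leaves PBS library 3 alone in its block, so it is no paired analysis. MSC had 1515, 2354 with no filter, and 38 (without IL-1β library 1) to 3819 (without PBS library 2). Upper-quartile factors changed 945 higher and 570 lower in MSC to 817 and 831.

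LSK against LK had 4394 under PBS, 4480 with a replicate block, and 2741 (without LK PBS library 1) to 4607 (without LSK PBS library 2). Under IL-1β, 609 became 1317 with DESeq2, 182 with limma-voom, 1410 with no filter, 977 with libraries of that treatment only, 733 with a replicate block, and 89 (without LK IL-1β library 2) to 1867 (without LSK PBS library 2). Upper-quartile factors changed 295 higher and 314 lower to 394 and 247. The response difference had 4 genes called by edgeR (1967 at an unadjusted p under 0.05), 324 by DESeq2, 1 by limma-voom, 398 with no filter, 24 with a replicate block, and 0 (without LK IL-1β library 1, 907 at an unadjusted p under 0.05) to 336 (without LSK PBS library 2).

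Direction reversed for 4 log2 fold changes, none of them called. With libraries left out, LSK values ranged from -0.16 (without IL-1β library 2) to 0.45 for Ncf4, and from -0.10 (without PBS library 2) to 0.20 for Rac2, which was -0.04 without IL-1β library 2. Cyba between LSK and LK under IL-1β ranged from -0.34 (without LSK IL-1β library 2) to 0.37, with -0.15 without LK IL-1β library 2. Its response difference ranged from -0.71 to 0.10 (without LSK IL-1β library 1). The cause was not tested. Where 1 library was left in a group, it was assumed to vary like the other groups. No paired analysis was possible for MSC, whose treatments share only number 2. Counts were lowest for Cybb in LSK cells (40 read pairs in IL-1β library 2), which limits its precision there.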
